A study of Mus musculus with 16 samples.

Results

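The 10 genes described here handle sterols in the small intestine: Npc1l1, Scarb1 and Cd36 on the uptake side, Soat2 in cholesterol esterification, Abcg5, Abcg8 and Abca1 on the export side, the liver X receptors (LXR) Nr1h3 and Nr1h2, and the LXR target Mylip. They were chosen by name, as the rows whose transcript name belongs to 1 of these genes, and their transcripts were summed to 10 of the 23299 genes in the deposited table. All 10 passed the filter on low values and were among the 19042 genes tested. RNA came from snap-frozen terminal ileum of Tas1r3+/+ mice and Tas1r3-/- littermates, which lack the sweet and umami taste receptor subunit TAS1R3 in every cell. The knockout allele, Tas1r3tm1Csz, had been backcrossed to C57BL/6 for at least 7 generations. Mice entered the study at 5 to 6 weeks of age and were fed for 10 weeks, either a normal diet (ND, D12450J pellets with plain water) or a Western diet (WD, a 60% high-fat diet, D12492, with 30% sucrose in the water). The groups are called WT-ND, KO-ND, WT-WD and KO-WD below, and each holds males (M) and females (F) in the labels. All mice were kept in a specific pathogen-free facility, and each library is a whole piece of ileum, with muscle, vessels and immune cells beside the epithelium.

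Only 13 of the 16 labelled columns stood for separate libraries. The female columns of KO-ND are weighted means of the male columns in nearly all transcripts, so KO-ND is represented by 2 males, and the related female columns of KO-WD were averaged to 1 library. That leaves 4 WT-ND, 2 KO-ND, 4 WT-WD and 3 KO-WD libraries, with an implied depth of 7003902 to 12384422 reads. Genotype on the ND is therefore compared between 2 males and a group of 2 males and 2 females, and values for males alone are given beside it. Tas1r3 itself had an RPKM (reads scaled to transcript length and library size) of 1.80 to 2.95 in WT-ND, 4.21 to 6.27 in WT-WD and at most 0.00452 in both knockout groups, as the labels require. Values below are scaled RPKM, which is the deposited RPKM divided by a scaling factor of each library (0.693 to 1.41), and fold changes are differences of log2(scaled RPKM + 0.5). RPKM is per length, so levels of different genes can be set side by side, with 1 limit. The levels are sums over all transcripts of a gene, non-coding ones included. Nr1h2 sums 14 transcripts, with 38.9% of its RPKM in the main one, and Npc1l1 has 1. The deposited columns summed to 817011 to 819916 RPKM in the 6 ND-fed libraries and 542371 to 685274 in the 7 WD-fed ones. Every comparison of the diets below therefore also compares these 2 ranges of column sums, and the design cannot tell them apart from the diet.

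In the enterocyte, NPC1L1 carries luminal cholesterol and plant sterols across the brush border, and the ABCG5/ABCG8 heterodimer pumps plant sterols and part of the cholesterol back. Cholesterol that stays is esterified by SOAT2 (ACAT2) for chylomicrons or passed by ABCA1 to apolipoprotein A-I at the basolateral side. LXRα (Nr1h3) and LXRβ (Nr1h2) sense oxysterols and drive Abca1, Abcg5, Abcg8 and Mylip, whose product is a ubiquitin ligase that limits lipoprotein uptake. SR-BI (Scarb1) and CD36 bind lipoproteins and long-chain fatty acids and are also made by endothelial cells, macrophages and fat cells.

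Abcg5 and Abcg8 lie head to head on chromosome 17, and the bases between their transcription starts are shown because the levels of both genes varied together more closely than those of any other pair described here. In GRCm38 (RefSeq p6), chr17:84683012-84683120, read on the plus strand toward Abcg8, is 109 bases long. The capitals mark 2 GATA boxes, which read AGATAA on the minus strand, at 84683028 to 84683033 and at 84683058 to 84683063.
Abcg5-Abcg8 intergenic: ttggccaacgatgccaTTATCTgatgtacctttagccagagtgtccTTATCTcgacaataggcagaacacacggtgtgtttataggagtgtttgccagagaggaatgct
A search of both strands for the GATA box (an A or T, then GATA, then A or G) found a match in 29.8% of 32851 RefSeq promoter windows, which are longer than this segment. The segment before Abca1 is shown because it holds an LXR element of the direct-repeat type, given here in the letters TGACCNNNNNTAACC. It is chr4:53159896-53160022 on the minus strand of the same build, 127 bases long, with the 2 half-sites in capitals at -67 to -53 from the start.
Abca1 upstream: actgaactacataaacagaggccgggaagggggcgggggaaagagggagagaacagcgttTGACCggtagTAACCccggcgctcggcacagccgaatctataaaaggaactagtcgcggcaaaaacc
These letters were found on either strand in 16 of the 32851 windows (0.0487%), and among the 10 windows of the 8 members that have one, only that of Abca1 held them. Soat2 and Scarb1 are named without a promoter sequence. The letters spell the half-sites shown for Abca1, so the match there does not set Abca1 apart from members whose LXR elements are spelled differently. A match in letters is not a bound site.

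Over the 13 libraries the median level ranked in the order Nr1h2 (72.2 scaled RPKM), Npc1l1 (56.6), Abcg5 (46.0), Abcg8 (25.4), Nr1h3 (17.3), Soat2 (13.6), Cd36 (7.54), Mylip (6.50), Scarb1 (3.21) and Abca1 (1.77). Abcg5 was above Abcg8 in 13 of 13 libraries, and Abcg8 was above Nr1h3 in 13 of 13. Nr1h2 exceeded Npc1l1 in only 7 of 13 libraries, Npc1l1 exceeded Abcg5 in 7 of 13, and Cd36 exceeded Mylip in 8 of 13, so these neighbors in the order did not differ beyond their spread. The basolateral exporter Abca1 was the lowest of the 10, with 73.6 to 255 implied reads in a library.

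**Figure D1:**
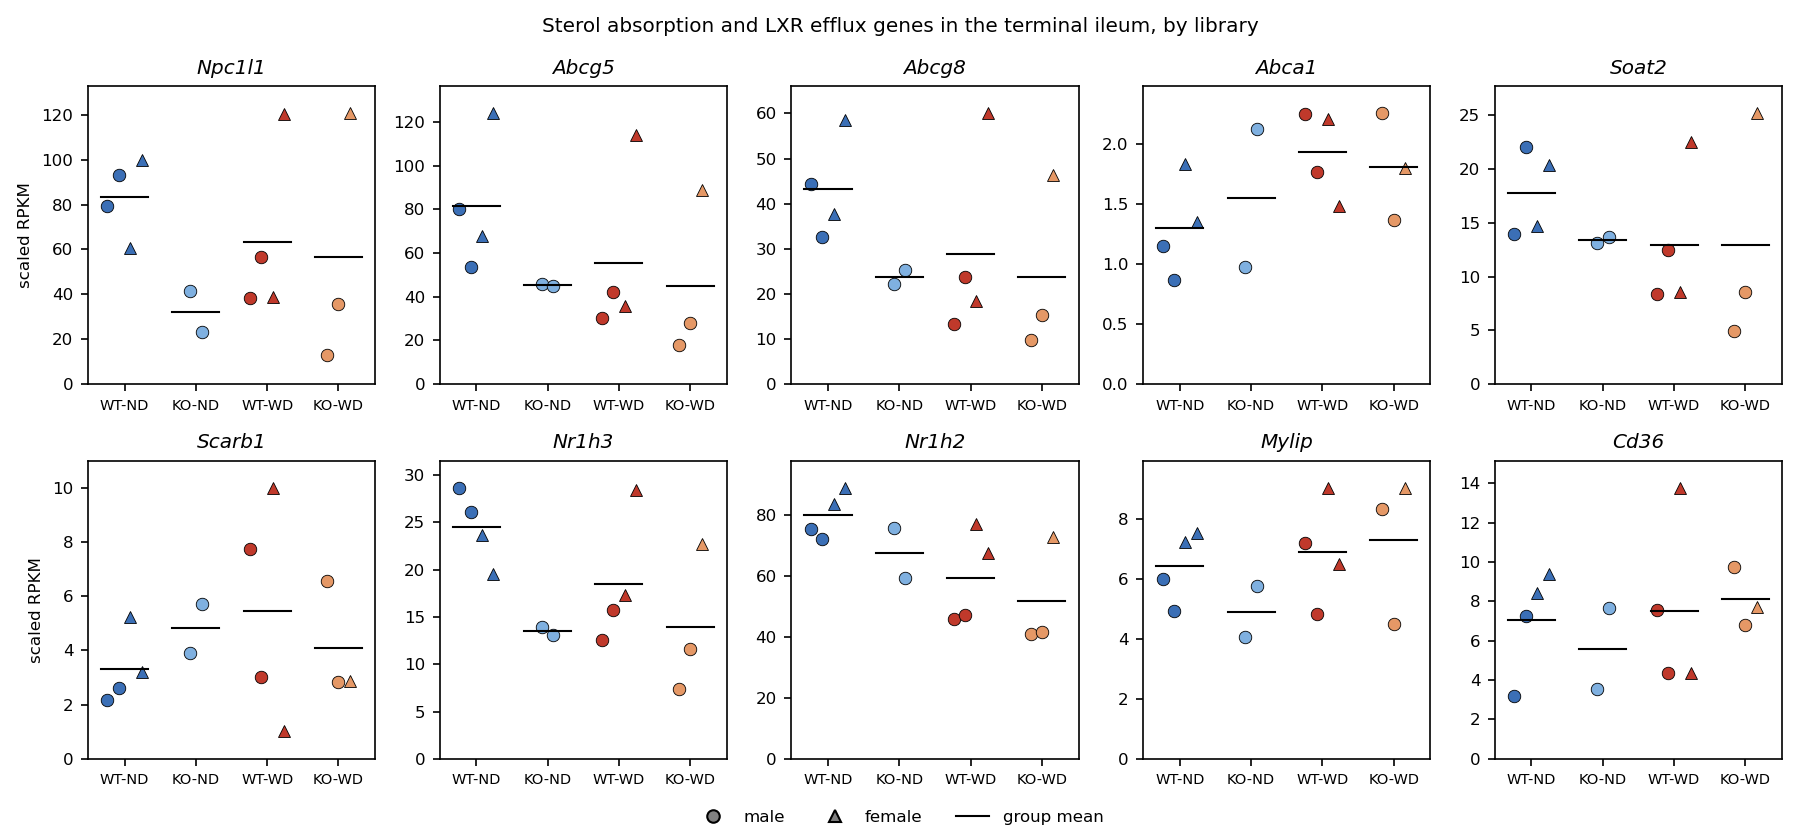
Scaled RPKM of the 10 genes in 13 libraries of the terminal ileum, with 1 panel per gene and a vertical axis that starts at 0. Circles are males, triangles are females and bars are group means. The female libraries WT-WD F2 and KO-WD F are the highest of their groups for Npc1l1, Abcg5, Abcg8, Soat2 and Nr1h3.

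Npc1l1 (ENSMUSG00000020447.5, GRCm38 chromosome 11, 6211013 to 6230143, minus strand) is the target of ezetimibe and had 1 transcript of 19 exons. Its level was 79.2, 93.1, 60.8 and 99.9 scaled RPKM in WT-ND (M1, M2, F1, F2) and 41.3 and 23.2 in KO-ND. On the WD it was 38.4, 56.6, 38.6 and 120.3 in WT-WD and 13.1, 35.9 and 121 in KO-WD (M1, M2, F). Both KO-ND libraries lay below every WT-ND library, whereas the WD-fed groups overlapped with both ND-fed groups and with each other. The group means were 83.2 ± 17.3 (SD, n = 4), 32.3 ± 12.8 (SD, n = 2), 63.5 ± 38.8 (SD, n = 4) and 56.6 ± 56.7 (SD, n = 3) in the order WT-ND, KO-ND, WT-WD and KO-WD. In KO-WD the SD was as large as the mean, since 1 female library stood at 121 and the males at 13.1 and 35.9.

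Abcg5 (ENSMUSG00000040505.13, chromosome 17, 84658234 to 84683011, minus strand) was at 80.3, 53.4, 67.9 and 124 scaled RPKM in WT-ND and at 46.0 and 45.1 in KO-ND. It was at 30.1, 42.1, 35.6 and 114 in WT-WD and at 18.1, 27.8 and 89.0 in KO-WD. Again KO-ND lay below WT-ND, and 3 of 4 WT-WD libraries were below all ND-fed libraries while WT-WD F2 was above all but 1 of them. Abcg8 (ENSMUSG00000024254.15, 84676302 to 84700333, plus strand) was at 44.3, 32.6, 37.7 and 58.6 in WT-ND, 22.1 and 25.4 in KO-ND, 13.3, 23.7, 18.3 and 60.1 in WT-WD, and 9.77, 15.4 and 46.3 in KO-WD. The 2 half-transporters kept nearly the same ranking of libraries, and the ratio of Abcg5 to Abcg8 stayed between 1.64 and 2.26 (median 1.85). One annotated Abcg8 transcript, Abcg8-202, starts inside Abcg5 on the opposite strand, and whether the counting used strand is not given in the sources used here.

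Soat2 (ENSMUSG00000023045.13, chromosome 15, 102150526 to 102163469, plus strand) was at 14.0, 22.1, 14.7 and 20.4 scaled RPKM in WT-ND and at 13.2 and 13.6 in KO-ND. It was at 8.34, 12.5, 8.58 and 22.5 in WT-WD and at 4.94, 8.54 and 25.2 in KO-WD. The KO-ND libraries lay just below the lowest WT-ND library, and the highest and the lowest value of the whole series both belonged to KO-WD. Abca1 (ENSMUSG00000015243.4, chromosome 4, 53030787 to 53159895, minus strand) was at 1.15, 0.870, 1.83 and 1.35 in WT-ND, 0.975 and 2.13 in KO-ND, 2.25, 1.77, 2.21 and 1.48 in WT-WD, and 2.25, 1.36 and 1.79 in KO-WD. Abca1 ran the other way from the other exporters, with group means of 1.30 ± 0.406 (SD, n = 4) in WT-ND and 1.93 ± 0.368 (SD, n = 4) in WT-WD, and its groups overlapped in every comparison.

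Of the 2 receptors, Nr1h3 (ENSMUSG00000002108.10, chromosome 2, 91184061 to 91202834, minus strand) was at 28.6, 26.1, 23.7 and 19.5 scaled RPKM in WT-ND and at 14.0 and 13.1 in KO-ND. It was at 12.6, 15.8, 17.3 and 28.5 in WT-WD and at 7.43, 11.6 and 22.7 in KO-WD. KO-ND again did not overlap with WT-ND. Nr1h2 (ENSMUSG00000060601.13, chromosome 7, 44549616 to 44553951, minus strand) was at 75.5, 72.2, 83.6 and 88.9 in WT-ND, 75.8 and 59.3 in KO-ND, 45.8, 47.3, 76.9 and 67.4 in WT-WD, and 40.9, 41.5 and 72.7 in KO-WD. Its 4 lowest values were those of the 4 WD-fed males, and every WD-fed female was above every WD-fed male.

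Scarb1, Mylip and Cd36 spread widely within groups. Scarb1 (chromosome 5, 125277087 to 125341094, minus strand) ranged from 1.02 in WT-WD F2 to 10.00 in WT-WD F1, so that 1 group held both ends. Mylip (chromosome 13, 45389742 to 45412022, plus strand) ranged from 4.05 in KO-ND M1 to 9.04 in WT-WD F1, and its group means of 6.42 ± 1.19 (SD, n = 4), 4.90 ± 1.20 (SD, n = 2), 6.89 ± 1.74 (SD, n = 4) and 7.29 ± 2.44 (SD, n = 3) lay within the spread. Cd36 (chromosome 5, 17781690 to 17888801, minus strand) ranged from 3.22 in WT-ND M1 to 13.8 in WT-WD F1. One transcript of Cd36, Cd36-206, carried a value of more than 6 significant digits in KO-WD M2, where nearly all deposited values have at most 6, and Cd36 comparisons that change sign without such transcripts are given below.

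The WD was compared with the ND in Tas1r3+/+ mice first. No member passed the test, and 6 of 10 had a negative log2 fold change, among them Npc1l1, Abcg5, Abcg8 and Soat2. The log2 fold change was -0.78 (SE 0.48) for Abcg8, -0.70 (SE 0.49) for Abcg5, -0.53 (SE 0.56) for Npc1l1 and -0.53 (SE 0.42) for Soat2. It was -0.46 (SE 0.23, 95% interval -0.95 to 0.04) for Nr1h2 and -0.44 (SE 0.31) for Nr1h3. On the other side were Abca1 at 0.45 (SE 0.25, 95% interval -0.10 to 1.00), Scarb1 at 0.34, Mylip at 0.08 and Cd36 at 0.02. With limma's moderated test and Benjamini-Hochberg adjustment over all genes, adjusted p was 0.353 for Nr1h2, 0.416 for Abca1 and 0.449 for Abcg8, and up to 0.986 for the others. Calls were made at an adjusted p under 0.01 with a fold change of at least 2, which 0 members and 1 of the 19042 genes (0.00525%) passed. At an adjusted p under 0.05 without a fold limit it was 0 members and 0.116% of all genes, and at an unadjusted p under 0.05 it was 0 members and 15.5% of all genes. The members' median was -0.45 against 0.02 over all genes, with 6 of 10 lower. The exact two-sided permutation test gave p = 0.0857 for both Abca1 and Nr1h2 and larger values for the rest, where 0.0286 is the smallest this design allows. The libraries of the 2 groups overlapped in all 10 members and were apart in 10.5% of all genes. WT-WD F2 stood far above the other WT-WD libraries in Npc1l1, Abcg5, Abcg8, Soat2 and Nr1h3, and without it the log2 fold change was -0.89 for Npc1l1, -1.11 for Abcg5, -1.21 for Abcg8, -0.82 for Soat2 and -0.67 for Nr1h3, still with no adjusted p under 0.05. Among cell type markers in the same comparison, 5 of 7 enterocyte markers were lower (median -0.19), 3 of 4 proximal enterocyte markers higher (median 0.99), 6 of 6 endothelium markers higher (median 0.42) and 7 of 8 adipocyte markers lower (median -1.48). Ileal enterocyte markers were lower in 3 of 4 (median -0.29) and smooth muscle markers higher in 5 of 6 (median 0.36). With the mean of the proximal enterocyte markers as a covariate, added when the data had been seen, Npc1l1 was at -1.17 (adjusted p = 0.0273), Soat2 at -0.98 (adjusted p = 0.0353) and Nr1h3 at -0.75 (adjusted p = 0.0440) in limma, and with the general enterocyte list no member had an adjusted p under 0.05. Without the covariate, adjusted p of these 3 genes was 0.512 to 0.670 in limma. With the covariate, the share of all genes at an adjusted p under 0.05 is not reported here. The proximal markers tested were Fabp1, Slc2a2, Sis and Ada, and they were themselves mostly higher on the WD, as given above. Tissue makeup and a response of these markers to the diet cannot be told apart in that fit. The part of the other cell types was not tested.

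**Figure D2:**
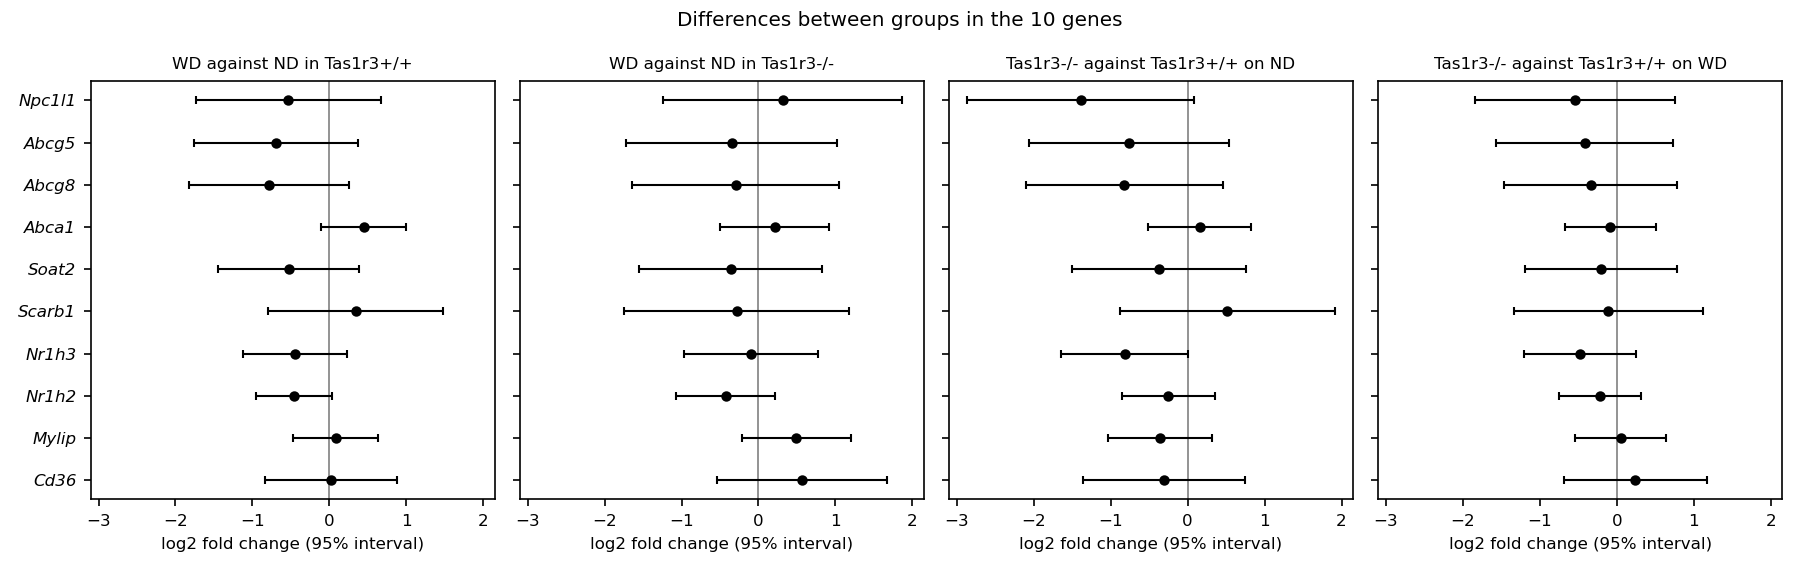
Log2 fold changes of the 10 genes in the 4 comparisons of 2 groups, with 95% intervals of limma's moderated test on the horizontal axis. All intervals include 0, and the interval of Nr1h3 on the ND and of Nr1h2 in Tas1r3+/+ mice end closest to it.

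In Tas1r3-/- mice the same diet comparison rested on 3 against 2 libraries. The log2 fold change ran from -0.43 (SE 0.29) for Nr1h2 to 0.57 (SE 0.51) for Cd36, with Abcg5 at -0.35, Abcg8 at -0.30, Soat2 at -0.36 and Npc1l1 at 0.31 (SE 0.72, 95% interval -1.24 to 1.87). Adjusted p in limma was 0.957 to 0.999, and 0 members and 0% of all genes were called. At an adjusted p under 0.05 it was 0 members and 0.00525% of all genes, and at an unadjusted p under 0.05 it was 0 members and 5.49%. The permutation test used cannot give a p below 0.20 for these group sizes, and the smallest among the members was 0.40. No member was apart between the groups, compared with 20.9% of all genes. The value of Npc1l1 depended on single libraries: without KO-WD F it was at -0.50, and without KO-WD M1 it was at 1.08. Without KO-WD F, Abcg5 was at -1.004, Abcg8 at -0.92, Soat2 at -0.99 and Nr1h3 at -0.52. The test of whether the diet difference itself differed between genotypes gave log2 values from -0.63 for Scarb1 to 0.85 (SE 0.91) for Npc1l1. Its smallest unadjusted p among members was 0.337 in limma, with 0 members and 0% of all genes called or at an adjusted p under 0.05, and 0 members and 1.43% of all genes at an unadjusted p under 0.05.

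Averaged over genotypes, Nr1h2 was lower on the WD by a log2 fold change of -0.44 (SE 0.19, 95% interval -0.85 to -0.04). Its unadjusted p in limma was 0.0344 and its adjusted p 0.249, so it did not pass. It was the 1 member at an unadjusted p under 0.05, which 17% of all genes reached. The other members lay between -0.54 for Abcg8 and 0.33 for Abca1. 0 members were called (0.0315% of all genes), and 0 had an adjusted p under 0.05 (0.709% of all genes). With sex as a covariate Nr1h2 was at -0.53 with an adjusted p of 0.0418, and in males alone at -0.68 with an adjusted p of 0.0376. In males alone Abcg5 was at -0.94 with an adjusted p of 0.0482. The share of all genes at an adjusted p under 0.05 in these other fits is not reported here, and 0.709% belongs to the main fit.

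Genotype on the ND was the comparison in which the most members were apart. Npc1l1, Abcg5, Abcg8, Soat2 and Nr1h3, 5 of 10, were lower in both KO-ND libraries than in all 4 WT-ND libraries, and 22% of all genes did not overlap between these groups. The log2 fold change was -1.39 (SE 0.68, 95% interval -2.86 to 0.09) for Npc1l1 and -0.82 (SE 0.38, 95% interval -1.65 to 0.01) for Nr1h3. It was -0.82 (SE 0.59) for Abcg8, -0.76 (SE 0.60) for Abcg5 and -0.37 (SE 0.52) for Soat2. Scarb1 was at 0.52 and Abca1 at 0.16, and Nr1h2, Mylip and Cd36 were between -0.36 and -0.25. The unadjusted p in limma was 0.0519 for Nr1h3 and 0.0633 for Npc1l1, and adjusted p was 0.895 to 0.938 for the 10 members. No member was called (0% of all genes), none had an adjusted p under 0.05 (0.00525% of all genes, which is Tas1r3 alone), and 0 had an unadjusted p under 0.05 (4.73% of all genes). The exact two-sided permutation test gave p = 0.133, the smallest this test can give here, for each of the 5 members that were apart. Between males alone the log2 fold change was -1.46 (SE 0.47) for Npc1l1, -0.99 (SE 0.25) for Nr1h3, -0.67 for Abcg8, -0.52 for Abcg5 and -0.38 for Soat2, with adjusted p in limma of 0.516 or more. With sex as a covariate the values were -1.004, -0.61, -0.37, -0.27 and -0.059 in the same order. The members' median was -0.36 against 0.01 over all genes.

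The enterocyte content of the libraries moved with these differences. The 7 enterocyte markers (Vil1, Alpi, Fabp2, Apoa1, Apoa4, Anpep and Slc5a1) summed to 7297 to 11568 scaled RPKM in WT-ND and 2612 to 5320 in KO-ND, with 7 of 7 lower in KO-ND by a median log2 fold change of -1.19 and none at an unadjusted p under 0.05. The 6 smooth muscle markers summed to 1107 to 3316 in WT-ND and 1951 to 3788 in KO-ND, with 6 of 6 higher. Ileal and proximal enterocyte markers were lower in 4 of 4 tested each, and macrophage markers higher in 8 of 8. With the mean of the enterocyte markers as a covariate, a choice made when the data had been seen, the difference on the ND was -0.21 (SE 0.30) for Npc1l1, 0.06 for Abcg5, -0.02 for Abcg8, 0.47 for Soat2 and -0.26 (SE 0.27) for Nr1h3. In whole tissue, fewer enterocytes and less RNA per enterocyte cannot be told apart.

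On the WD, Tas1r3-/- and Tas1r3+/+ mice overlapped in every member. The log2 fold change was -0.54 (SE 0.60) for Npc1l1, -0.48 (SE 0.34, 95% interval -1.21 to 0.25) for Nr1h3, -0.41 for Abcg5, -0.34 for Abcg8, -0.22 for Nr1h2 and -0.20 for Soat2. The other 4 members were between -0.11 for Scarb1 and 0.24 for Cd36. Adjusted p in limma was 0.9999 for all 10, and permutation p was 0.343 or more, with 0.0571 the smallest this test can give here. 0 members were called (0.0105% of all genes), 0 had an adjusted p under 0.05 (0.0263%), 0 had an unadjusted p under 0.05 (2.65%), and 0 were apart (2.84%). The enterocyte markers summed to 5204 to 15990 scaled RPKM in WT-WD and 1087 to 13509 in KO-WD, with 7 of 7 lower in KO-WD (median -1.06) and 2 of 7 at an unadjusted p under 0.05. With their mean as a covariate the differences on the WD were 0.53 for Npc1l1, 0.33 for Abcg5, 0.39 for Abcg8, 0.56 for Soat2 and 0.02 for Nr1h3, each with the other sign.

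Much of the spread between libraries of a group was shared by several members. Npc1l1, Abcg5, Abcg8, Soat2 and Nr1h3 correlated with each other at Pearson r = 0.82 to 0.99 (median 0.88) over the 13 libraries, given as a description because these libraries share 1 tissue makeup per piece of ileum. Abcg5 and Abcg8 had the highest value, r = 0.989, and it was 0.986 for their deviations from the group means. WT-WD F2 ranked first or second among the 13 libraries in all 5 genes, and KO-WD M1 ranked last in all 5. Nr1h2 correlated with these 5 at 0.63 to 0.77. Abca1, Scarb1, Mylip and Cd36 formed a looser set, with r = 0.38 to 0.67 among themselves and r = -0.69 to 0.11 with the first 5.

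**Figure D3:**
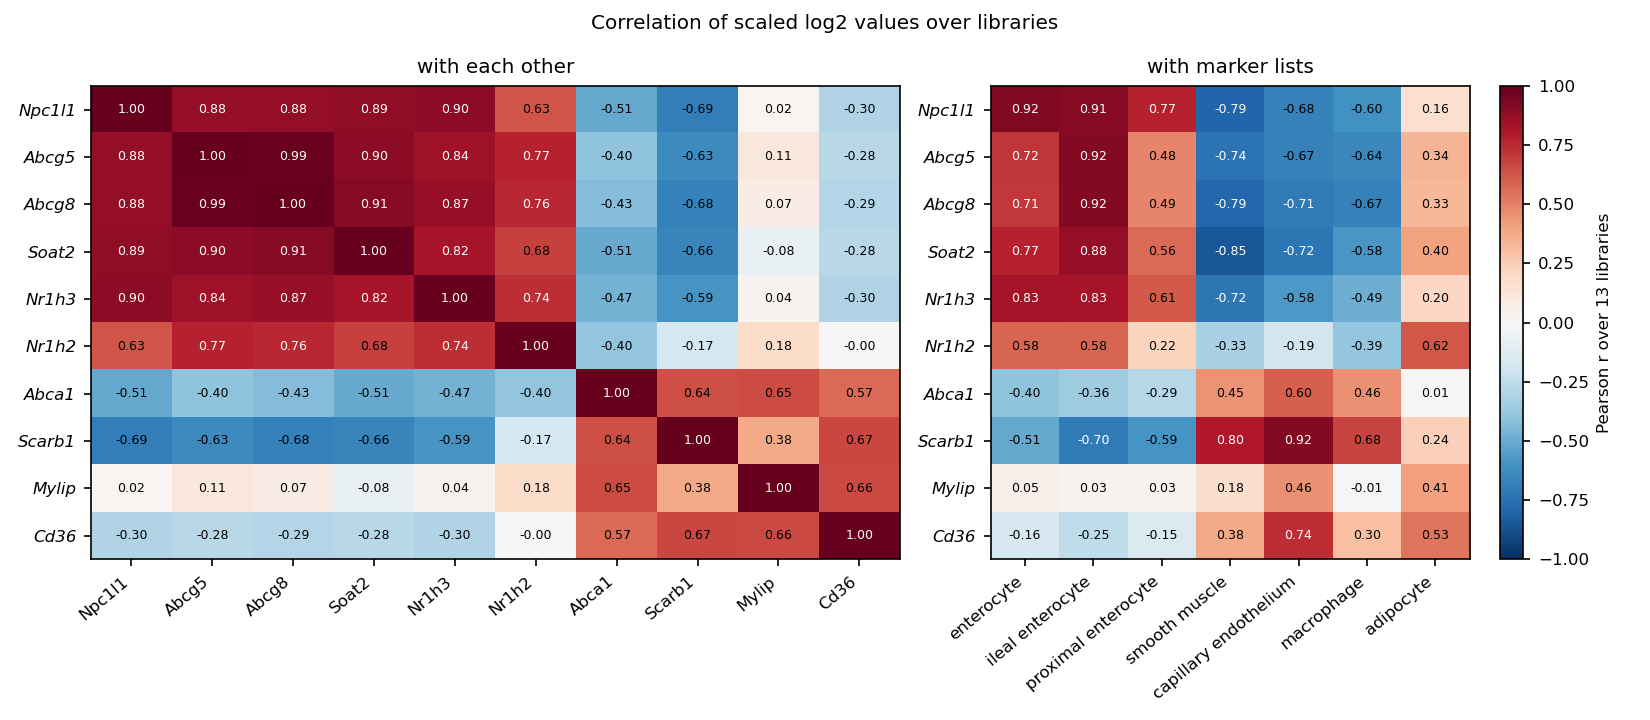
Pearson correlation of scaled log2 values over 13 libraries, of the 10 genes with each other and of the genes with the mean of 7 marker lists. Npc1l1, Abcg5, Abcg8, Soat2 and Nr1h3 are positive with each other and with the 3 enterocyte lists and negative with smooth muscle and endothelium, and Scarb1 shows the opposite signs.

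The same 5 genes tracked enterocyte and goblet cell markers, but not those of crypt stem cells. Their r with the 4 ileal enterocyte markers (Fabp6, Slc10a2, Slc51a and Slc51b) was 0.83 to 0.92. It was 0.71 to 0.92 with the general enterocyte list, 0.48 to 0.77 with the proximal list and -0.85 to -0.72 with 6 smooth muscle markers. With the goblet cell markers their r was 0.74 (Nr1h3) to 0.87 (Abcg8). With the crypt stem cell markers, also of the epithelium, it was negative, from -0.73 (Abcg8) to -0.56 (Npc1l1). Abcg5, Abcg8 and Soat2 had a higher r with the goblet list than with the general enterocyte list, and Npc1l1 and Nr1h3 a lower one. Npc1l1 followed the enterocyte list most closely, at r = 0.922 over all libraries and 0.941 for deviations from the group means, followed for deviations by Soat2 at 0.898 and Nr1h3 at 0.833. Nr1h2, which most cell types make, was at 0.58 with the enterocyte list, 0.62 with adipocyte, 0.60 with goblet and -0.72 with crypt stem cell markers. Scarb1 had r = 0.92 with 6 capillary endothelium markers and 0.80 with smooth muscle, and Cd36 had r = 0.74 with the endothelium list. Abca1 had r = 0.63 with T cell, 0.60 with endothelium, 0.54 with B cell and 0.46 with macrophage markers. The summed endothelium markers ranged from 17.9 to 96.2 scaled RPKM and both ends fell in WT-WD, as did both ends of Scarb1. Of the tissues that a dissection could add, the adipocyte markers summed to 32.9 to 262 scaled RPKM and 3 pancreas markers to at most 14.0. Those of 3 liver markers came to at most 10.49, and Alb, Cela3b and Pnlip were not analysed here.

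**Figure D4:**
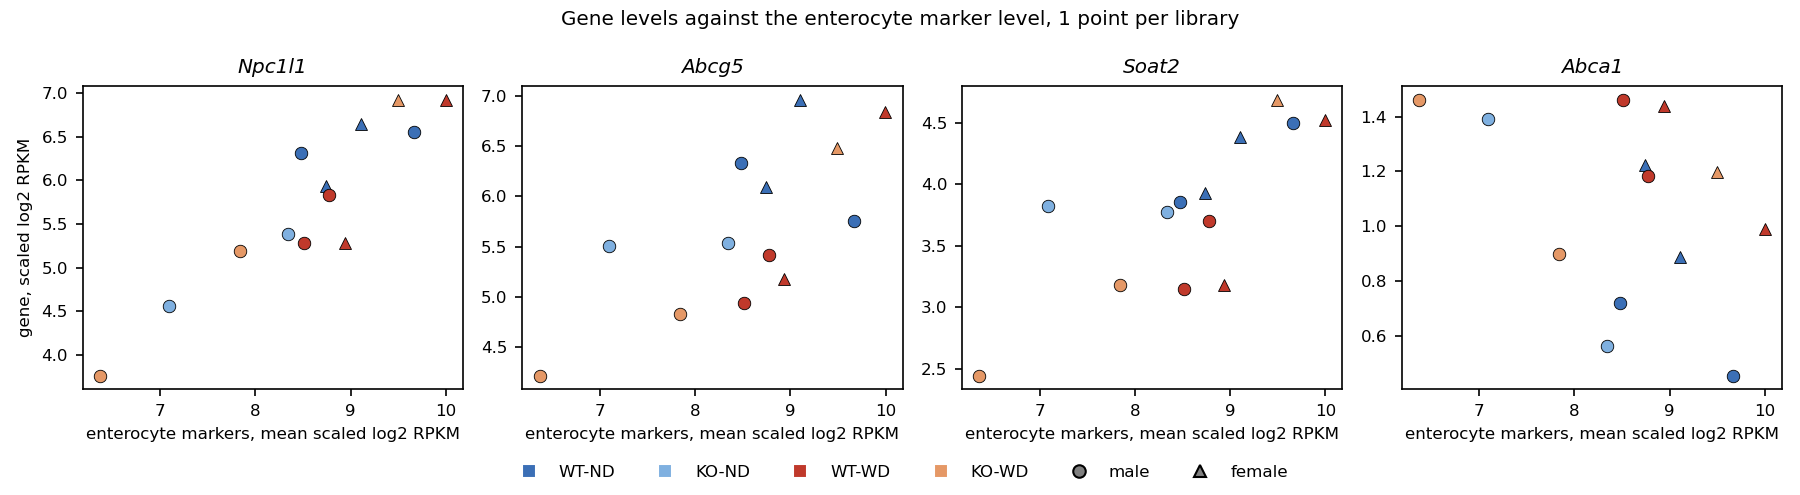
Scaled log2 RPKM of Npc1l1, Abcg5, Soat2 and Abca1 on the vertical axes against the mean scaled log2 RPKM of 7 enterocyte markers, with 1 point per library, colored by group and shaped by sex. Npc1l1 lies close to a line with the enterocyte level (r = 0.922), from KO-WD M1 at the lower left to WT-WD F2 at the upper right, and Abca1 shows no such rise (r = -0.40).

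The genes most alike in pattern were taken from 10904 genes with a mean RPKM of at least 5. For Npc1l1 they were Mxd1 (r = 0.986), Man1a (0.980), Tnfaip1 (0.980), Numb (0.978) and Cdhr5 (0.977). For Abcg5 they were Abcg8 (0.989), Gm17048 (0.975), F11r (0.973), Ncstn (0.971) and Esd-ps (0.971). Those of Abca1 were Gimap4 (0.906), Arhgdib (0.875), Gimap6 (0.858), Mndal (0.855) and Ly86 (0.849). Those of Cd36 were Eif1b (0.836), Podn (0.819), Kank3 (0.807), Per3 (0.798) and Ccdc80 (0.789). No p is attached, since each gene was picked as the highest of many and all share the same 13 libraries.

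Females had the higher values in several members. In a fit with sex beside the 4 groups, the female minus male log2 difference was 0.52 (SE 0.13) for Nr1h2, 0.98 (SE 0.33) for Abcg5 and 0.91 (SE 0.34) for Abcg8, with adjusted p in limma of 0.0746, 0.146 and 0.176. No member passed an adjusted p of 0.05 (0.457% of all genes did). At an unadjusted p under 0.05 there were 4 of 10 members, these 3 and Mylip (0.41, adjusted p = 0.256), compared with 19.3% of all genes. Nr1h2 was above all males in every female of WT-ND, WT-WD and KO-WD. For Npc1l1 the difference was -0.14 in WT-ND, 0.54 in WT-WD and 2.45 in KO-WD, and for Soat2 it was -0.02, 0.43 and 1.87, so the size rested on the single KO-WD female and on WT-WD F2, the libraries with the highest enterocyte marker sums (13509 and 15990 scaled RPKM).

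Below the gene level, 39 transcripts of the members passed the filter among 43552 tested. Averaged over genotypes, 2 of them had an adjusted p under 0.05 on the WD, compared with 1.12% of all transcripts. This look at transcripts was added when the data had been seen. The first was Abcg5-203, annotated as a processed transcript without a coding frame, at chr17:84669917-84674370 on the minus strand. It has 6 exons and 944 bases. Of these, 5 exons are shared with other Abcg5 transcripts, and its first exon, 121 bases at 84674250 to 84674370, is the part of its own. That exon is shown because reads there are the ones that can name this transcript. It was read from GRCm38 by GENCODE M21 coordinates, and the capitals are the first 20 bases of the next exon, which mark the junction.
Abcg5-203 first exon: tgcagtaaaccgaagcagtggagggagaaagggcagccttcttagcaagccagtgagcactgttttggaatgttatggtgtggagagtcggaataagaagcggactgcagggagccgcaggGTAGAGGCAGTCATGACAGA

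Abcg5-203 was at 6.76, 10.0, 11.7 and 22.5 scaled RPKM in WT-ND and at 8.92 and 12.6 in KO-ND. On the WD Abcg5-203 was at 2.93, 0.307, 0.00160 and 7.23 in WT-WD and at 0.00192, 0.0109 and 0.376 in KO-WD. All ND-fed libraries were above all WD-fed ones except that WT-WD F2 was above WT-ND M1. Its log2 fold change, WD against ND averaged over genotypes, was -3.47 (SE 0.58, 95% interval -4.72 to -2.22) with an adjusted p in limma of 0.0171 over all transcripts. In Tas1r3+/+ mice Abcg5-203 was at -2.74 (adjusted p = 0.112) and in Tas1r3-/- mice at -4.19 (adjusted p = 0.306), neither past the threshold. The coding transcript Abcg5-201 overlapped between diets, at 26.4 to 75.8 scaled RPKM on the ND and 15.8 to 81.0 on the WD. Abcg5-203 made up 8.66% to 27.4% of the gene's RPKM on the ND and 0.00435% to 9.69% on the WD, so part of the lower Abcg5 sum on the WD lay in this non-coding transcript. With protein-coding transcripts alone, Abcg5 in Tas1r3-/- mice was at 0.08 on the WD against the ND instead of -0.35. That fit also left out the retained-intron transcript Abcg5-204, with a median of 12.8 scaled RPKM on the ND and 6.17 on the WD. In Tas1r3+/+ mice the coding Abcg5-201 had a median of 47.1 in WT-ND and 30.8 in WT-WD.

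**Figure D5:**
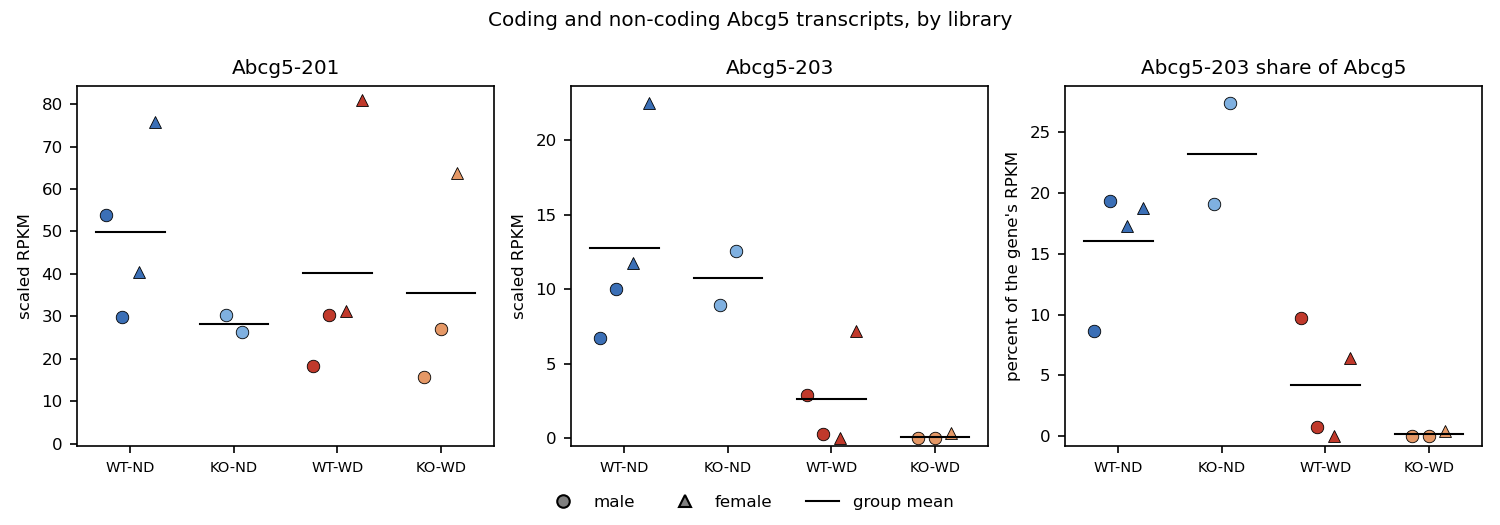
Scaled RPKM of the coding Abcg5-201 and the non-coding Abcg5-203, and the percent of Abcg5 RPKM in Abcg5-203, in 13 libraries with group means as bars. Abcg5-203 is at 6.76 or more in the 6 ND-fed libraries and at 7.23 or less in the 7 WD-fed ones, and Abcg5-201 overlaps between the diets.

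The adjusted p of Abcg5-203 stayed under 0.05 with 3 other scalings (none included), pseudocounts of 0.1 and 1, sex as a covariate and 11 of 13 single libraries left out. A transcript fit with the replicate number as a block was also run, and its result is not reported here. Without KO-ND M1 the adjusted p of Abcg5-203 was 0.0780, and without KO-ND M2 it was 0.0934. RPKM sums of the deposited columns differed by diet, at 817011 to 819916 in ND-fed libraries and 542371 to 685274 in WD-fed ones. In Abcg5-203, as in every diet comparison here, this difference cannot be told apart from the diet. The reads behind Abcg5-203 are few and were divided between transcripts by an estimate. There were 69.7 to 316 implied reads on the ND and 0.0144 to 65.6 on the WD. The second transcript was Nr1h2-204, with 1.25 to 4.89 scaled RPKM on the ND and 0.739 to 2.27 on the WD. Its log2 fold change was -1.21 (SE 0.25, adjusted p in limma = 0.0423), it has no bases of its own, and leaving out any of 10 of the 13 libraries took its adjusted p past 0.05, up to 0.165. The retained-intron share of all RPKM was 8.30% to 12.8% in ND-fed and 6.97% to 9.64% in WD-fed libraries, and its part in these values was not tested.

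The rest of the pathway was read from lists of LXR targets, sterol traffic genes, the SREBP2 pathway, fatty acid uptake and regulators of the transporters. No listed gene had an adjusted p under 0.05 in any of the 6 comparisons in limma, and Rxrg and Gata4 were not tested because of low values. Counts below are at an unadjusted p under 0.05 on the WD against the ND in Tas1r3+/+ mice, which 15.5% of all genes reached, and up to 4 of the most abundant genes of each list are named.

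Among LXR targets and partners, 4 of 11 tested reached that level, 3 of them lower. The phospholipid remodelling enzyme Lpcat3 had a log2 difference of -0.92 (adjusted p = 0.271), the lipogenic factor Srebf1 at -0.64 (adjusted p = 0.280), the LXR partner Rxrb at -0.41 (adjusted p = 0.288) and Apoe at 0.23 (adjusted p = 0.802). The list's median was 0.08 against 0.02 over all genes. For sterol traffic it was 3 of 19, 2 of them lower, with Anxa2 at -0.50, Apob, the chylomicron scaffold, at 0.36, Cdc42 at 0.28 and the NPC1L1 recycling factor Lima1 at -0.36.

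The SREBP2 pathway, which makes cholesterol when cells are short of it, had 3 of 11 at that level, and 11 of 11 had a negative log2 fold change with a median of -0.33. Srebf2 was at -0.68 (SE 0.17, adjusted p = 0.113), the squalene epoxidase gene Sqle at -0.64 and Hmgcs1 at -0.12. In Tas1r3-/- mice 6 of these 11 were negative, with a median of -0.05.

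Fatty acid uptake genes beside Cd36 had 0 of 7 at that level, with Fabp2 at 1.11, Slc27a4 at -0.73, Acsl5 at 0.05 and Cav1 at 0.33. Upstream regulators had 2 of 7, both lower, and 7 of 7 had a negative log2 fold change with a median of -0.73. Ppard was at -1.01 (SE 0.30, adjusted p = 0.152), the bile acid receptor Nr1h4 at -0.73 and Hnf4a, a nuclear receptor of enterocyte and hepatocyte identity, at -0.52.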

How the data were processed

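Ileal RNA was poly(A)-selected, depleted of rRNA and run by the authors on Ion Proton instruments. The authors mapped the reads with STAR 2.5.3a in Partek Flow (GRCm38, mm10 per the labels) and quantified Ensembl release 91. The deposited values are RPKM for 59258 transcripts, which the authors obtained by dividing reads by transcript length and a library total. Whether strand was used is not given in the sources used here. Labels hold 4 mice per group, whereas the study states 6.

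The KO-ND female columns were left out as weighted means of the males (17 and 18 transcripts depart), and the KO-WD female pair was averaged. Implied reads come from the smallest step of the values. Gene sums had to reach 1 RPKM in 2 libraries or more. Scaling factors are trimmed means of log ratios, with 30% of ratios and 5% of levels trimmed at each end. Limma 3.58.1 (R 4.3.3) was run on log2(scaled RPKM + 0.5), a pseudocount that understates changes of low genes, in 1 model of the 4 groups with 9 residual degrees of freedom, a trend on the mean and Benjamini-Hochberg adjusted p. The thresholds, adjusted p below 0.01 and 2-fold, are those of the study, whose own count model could not be used on RPKM. Exact two-sided permutation tests of single members used SciPy 1.17.1, with the smaller tail doubled. Simulated data with known changes served to check the fit. P-values cover the spread between these libraries, which the labels do not tie to cages or litters.

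The members, pathway lists and marker lists were chosen with earlier results of these data known. All 10 members are named, and of each list the 4 genes with the largest mean RPKM and any gene past an adjusted p of 0.05, except that some genes and 1 list are not reported here. For Npc1l1, Abcg5, Abca1 and Cd36 the 5 most correlated genes are named. Transcript tests, the sex difference, both enterocyte covariates and the fit on protein-coding transcripts were added after the data had been seen. The other settings were other scalings, pseudocounts, filters and thresholds, no trend, sex, replicate number, 2 groups alone, males alone, the most abundant transcript, all 16 columns, either KO-WD female alone, no values of more than 6 digits, and each library left out. Coordinates are from GENCODE M21, which matched 98.2% of transcript names, and promoter sequences from RefSeq GRCm38.p6.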

Additional observations from a re-analysis of the deposited data

Results flagged for a closer look

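The Abcg5 level of WT-WD F2, 113.877 scaled RPKM, was far from the other 3 WT-WD libraries: its gap to the nearest of them was 0.857 of the group's range, above the critical value of 0.829 for 4 samples. Of 20 groups of 4 examined over the 10 genes this was the 1 that stood out, and chance alone gives about 1 in 20. The same library had the highest enterocyte marker sum of the 13, 15990 scaled RPKM, and its part in the Abcg5 value was not tested.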

How the results depend on the processing

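No member was called under any of 20 alternatives or with any of the 13 libraries left out, except that at an unadjusted p under 0.05 without a fold limit the average over genotypes gave 1, Nr1h2. Of 893 recomputed log2 fold changes of members 44 changed sign, as did 30 of 533 with 1 library left out, and none of these had passed the test. The cause was not tested. Abca1, Scarb1, Mylip and Cd36 had median implied reads of 199, 111, 188 and 193 a library, which limits the precision of their values. Without scaling, the median of all genes shifted to -0.36 on the WD averaged over genotypes, and adjusted p in limma went under 0.05 for Nr1h3 (-0.69, adjusted p = 0.0391) and Nr1h2 (-0.87, adjusted p = 0.00619), and in Tas1r3+/+ mice, where that median was -0.38, for Nr1h3 (-0.90, adjusted p = 0.0374) and Nr1h2 (-0.92, adjusted p = 0.0163). With the proximal enterocyte marker mean as a covariate, on the same average, Npc1l1 was at -0.91 (adjusted p = 0.0307), Abcg8 at -1.10 (adjusted p = 0.0418), Soat2 at -1.02 (adjusted p = 0.0187), Nr1h3 at -0.66 (adjusted p = 0.0372) and Nr1h2 at -0.63 (adjusted p = 0.0423). The proximal markers were themselves higher on this average in 3 of 4 (median 0.92), so this covariate was not separate from the diet. Without scaling, 526 genes were called on the average over genotypes and 539 in Tas1r3+/+ mice. The share of all genes at an adjusted p under 0.05 in the unscaled and covariate fits is not reported here, so these members cannot be set against it. A filter on a mean RPKM of 5 left Abca1 and Scarb1 without a value.

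The replicate block moved no member past the threshold, and it put Nr1h2 averaged over genotypes at -0.54 (adjusted p = 0.0620 in limma). Same-numbered libraries correlated in their deviations from the group means at -0.15 to 0.57 over 14 pairs, with a median of 0.11 against -0.045 for other pairs. Since 7 of the 14 were not over 0.1 and the labels tie no number to a shared litter or batch, the numbers were not taken as pairs, although 8 of 12 libraries correlated best with their own number, which is a hint of pairing from the data.

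The values that changed sign are grouped by setting. Without scaling they were -0.083 for Npc1l1 and -0.11 for Abca1 (diet in Tas1r3-/-), -0.035 for Scarb1, -0.35 for Mylip and -0.40 for Cd36 (diet in Tas1r3+/+), and -0.057 for Mylip (genotype on the WD). With the enterocyte covariate they were 0.060 for Abcg5, -0.10 for Abca1, 0.47 for Soat2, -0.15 for Scarb1 and 0.064 for Nr1h2 (genotype on the ND), and 0.53 for Npc1l1, 0.33 for Abcg5, 0.39 for Abcg8, 0.56 for Soat2, 0.024 for Nr1h3 and 0.066 for Nr1h2 (genotype on the WD). With the proximal covariate they were -0.65 for Npc1l1 and 0.42 for Scarb1 (diet in Tas1r3-/-), -0.11 for Abca1, 0.31 for Soat2 and -0.18 for Scarb1 (genotype on the ND), and 0.082 for Npc1l1, 0.011 for Abcg5, 0.10 for Abcg8, 0.24 for Soat2 and -0.025 for Mylip (genotype on the WD). With the most abundant transcript alone they were 0.10 for Abcg5 (diet in Tas1r3-/-), 0.071 for Cd36 (genotype on the ND), and 0.039 for Scarb1, 0.20 for Nr1h3 and -0.023 for Cd36 (genotype on the WD). With protein-coding transcripts they were 0.082 for Abcg5 (diet in Tas1r3-/-) and -0.011 for Cd36 (diet in Tas1r3+/+). With all 16 columns they were 0.041 for Abcg8 and 0.12 for Nr1h3 (diet in Tas1r3-/-) and 0.13 for Soat2 (genotype on the WD). Without values of more than 6 digits Cd36 was at -0.16 (diet in Tas1r3+/+), -0.075 (diet in Tas1r3-/-) and -0.33 (genotype on the WD). In males alone Npc1l1 was at -0.50 (diet in Tas1r3-/-) and Cd36 at 0.10 (genotype on the ND). On the ND, Nr1h2 was at 0.011 with sex as a covariate and at 0.0031 with the replicate block.

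With 1 library left out, the diet difference in Tas1r3-/- mice ranged from -0.50 to 1.08 for Npc1l1, -1.004 to 0.13 for Abcg5, -0.92 to 0.17 for Abcg8, -0.21 to 0.62 for Abca1, -0.99 to 0.13 for Soat2 and -0.52 to 0.26 for Nr1h3. In Tas1r3+/+ mice it ranged from -0.053 to 0.88 for Scarb1, -0.052 to 0.23 for Mylip and -0.31 to 0.21 for Cd36. The genotype difference ranged on the ND from -0.26 to 0.57 for Abca1 and -0.81 to 0.20 for Cd36, and on the WD from -1.35 to 0.22 for Npc1l1, -1.07 to 0.065 for Abcg5, -0.96 to 0.13 for Abcg8, -0.22 to 0.063 for Abca1, -0.83 to 0.29 for Soat2, -0.64 to 0.29 for Scarb1 and -0.12 to 0.34 for Mylip.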

Other observations

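The B cell, T cell, goblet cell and crypt stem cell markers were also read. B cell markers summed to 5.23 to 63.3 scaled RPKM, T cell markers to 4.52 to 44.4, crypt stem cell markers to 83.7 to 281 and goblet cell markers to 2739 to 9037 over the 13 libraries. None of these 16 markers had an adjusted p under 0.05 in any of the 6 comparisons in limma. In Tas1r3+/+ mice, 4 of 4 T cell markers were higher on the WD (median log2 fold change 0.74), 2 of 4 at an unadjusted p under 0.05 in limma. There 6 of 8 macrophage markers were higher (median 0.42), 3 of 8 at that level, which 15.5% of all genes reached. Of the goblet cell markers 3 of 4 were lower (median -0.67), 1 of 4 at that level. B cell and crypt stem cell markers were higher in 4 of 4 each, 0 at that level. In Tas1r3-/- mice 3 of 4 T cell markers were higher on the WD (median 0.25), 0 of 4 at that level. There 6 of 8 macrophage markers were lower (median -0.29), 2 of 8 at that level (5.49% of all genes).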
